A study of Mus musculus with 2 samples.

Results

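The 2'-5'-oligoadenylate synthetase (Oas) genes were examined in mouse soft-tissue sarcoma cells with and without a hairpin against the circular RNA circCsnk1g3. The family was taken as the 8 genes Oas1a, Oas1b, Oas1c, Oas1g, Oas2, Oas3, Oasl1 and Oasl2, chosen by gene symbol among the 25509 genes of the count table. Counts for 7 of the 8 were found, and all 7 had at least 10 counts in one library or in both, which was the limit for a gene to be compared. Oas1b was not analysed here. Genes listed with the pathway of these enzymes were described beside the family.

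Oas enzymes are sensors of double-stranded RNA inside the cell. When they bind it, they join ATP into short 2'-5'-linked oligoadenylates (2-5A), a second messenger of antiviral defense. In mouse cells the Oas genes are best known as interferon-stimulated genes: the factor ISGF3, which includes Stat2 and Irf9, binds an interferon-stimulated response element (ISRE) near their starts.

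Both libraries came from C57BL/6 sarcoma cells that lack p53 and overexpress Ccne1 (p53-/-Ccne1+ in the labels). These cells were made from mesenchymal stem cells, passed through a subcutaneous tumor and then through sarcoma foci in the lung of a further mouse, and were transduced only after recovery from the lung. One library carried the hairpin shcircCsnk1g3, which targets the backsplice junction that joins the ends of the circle, and the other carried the control hairpin shCTR, so loss of p53, the Ccne1 vector, the passage through lung and a hairpin vector were common to both. The comparison addressed whether depletion of this circRNA changes the transcripts of the tumor cells. With 1 library per group there was no replicate check and no test between conditions, and each interval below is an exact 95% interval for the counts of these libraries, covering counting error only.

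In total, 38792143 estimated counts were given for the shcircCsnk1g3 library and 42709996 for the shCTR library. The linear Csnk1g3 transcript had 2159 and 2411 counts, but a circle has no poly(A) tail, and these poly(A) libraries did not measure the depletion of circCsnk1g3. Mesenchymal markers were present, with 225330 and 282350 counts of Vim, and 11 of the 12 on the list had enough counts to be compared. Scaled to depth, 3 of these 11 were higher with shcircCsnk1g3 and 8 lower, none by 2-fold. The intervals of 3 lay above no difference and those of 7 below, beside 26.9% and 28.2% of all genes. Markers of leukocytes, which also express Oas genes, summed to 101 counts with shcircCsnk1g3 and 169 with shCTR. Of these 20 markers, 13 were at 0 in both, among them Itgam, Adgre1 and Lyz2, Ptprc (CD45) had 1 and 0 counts, and Cd68 made up 87 and 155 of those sums, so that the other 19 markers had 14 counts in each library. The part of such cells in the Oas differences was not tested. The 6 endothelial markers summed to 19 and 29 counts and the 8 lung epithelial markers to 28 and 29 counts. In bulk RNA of this kind, a smaller number of cells that express a gene and a lower level per cell cannot be told apart.

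The family lies on chromosome 5 at 2 places (GRCm38, GENCODE M21). Oasl2 (114896936 to 114912234) and Oasl1 (114923240 to 114937915) stand side by side on the plus strand. The Oas1, Oas2 and Oas3 genes fill an interval of 191.32 kb that begins 5.79 Mb further on, with Oas2 (120730333 to 120749853), Oas3 (120753098 to 120777661), Oas1c (120800194 to 120812514), Oas1g (120876142 to 120887613) and Oas1a (120896256 to 120907521) all on the minus strand. Oas1b, from 120812635 to 120824163 on the plus strand, is classed in this annotation as a polymorphic pseudogene: it is the flavivirus resistance gene, and laboratory strains such as C57BL/6 carry a premature stop in it. Of the 82 genes of that class in the annotation, 8 had a row in the count table.

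The stretch before each start is shown because the response element is what links this family to interferon in textbooks. Windows for 6 of the 8 genes were found in RefSeq (GRCm38.p6), and those of Oas2 and Oas1b were not used here. Each line gives the 120 bases before the RefSeq start, 5′ to 3′ along the strand of the gene, and capitals mark matches to GAAANNGAAA or, on the opposite strand, TTTCNNTTTC, the core letters of an ISRE. The windows are, in the order printed, chr5:120907526-120907645 (minus strand), chr5:120887614-120887733 (minus), chr5:120777660-120777779 (minus), chr5:120812515-120812634 (minus), chr5:114923120-114923239 (plus) and chr5:114896814-114896933 (plus).
Oas1a: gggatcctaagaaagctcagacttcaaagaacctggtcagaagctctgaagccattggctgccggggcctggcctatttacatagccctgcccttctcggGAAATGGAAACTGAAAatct
Oas1g: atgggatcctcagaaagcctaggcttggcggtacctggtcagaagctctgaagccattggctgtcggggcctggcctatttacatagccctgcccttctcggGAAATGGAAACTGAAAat
Oas3: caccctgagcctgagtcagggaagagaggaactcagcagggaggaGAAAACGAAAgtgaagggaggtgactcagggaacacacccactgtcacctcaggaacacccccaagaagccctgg
Oas1c: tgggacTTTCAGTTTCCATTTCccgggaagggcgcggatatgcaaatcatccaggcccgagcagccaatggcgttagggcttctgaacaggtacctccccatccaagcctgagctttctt
Oasl1: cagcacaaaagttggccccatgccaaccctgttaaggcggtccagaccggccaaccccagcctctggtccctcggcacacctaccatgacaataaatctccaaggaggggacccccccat
Oasl2: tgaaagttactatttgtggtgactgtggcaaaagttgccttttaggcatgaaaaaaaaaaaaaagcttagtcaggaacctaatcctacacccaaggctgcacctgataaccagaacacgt

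Matches were searched in the 250 bases before the start, on both strands. Oas1a held 2 overlapping matches that spanned 5 to 20 bases before the start, and Oas1g held the same pair at 3 to 18 bases. These windows of Oas1a and Oas1g were alike over their whole length, with 108 identical bases in 122 aligned columns (88.5%). Oas3 held 1 match at 66 to 75 bases. Oas1c held 2 overlapping matches at 99 to 114 bases, and as its window is the whole stretch of 120 bases between the annotated starts of Oas1c and Oas1b, which are read in opposite directions, the pair stood close to the start of Oas1b. Oasl1 and Oasl2 held no match in their 250 bases. Over all genes, 978 of 32851 such windows (2.98%) held a match. The shorter letters AANNGAAA (TTTCNNTT on the opposite strand), which every ISRE match also contains, occurred in 21.3% of the windows, and Oasl1 held 3 such matches between 126 and 177 bases before its start while Oasl2 held none. A match of letters is not a measured binding site, and its absence from a window of this length says nothing about the factor.

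As a family, the Oas genes were higher in the shcircCsnk1g3 library. Their counts summed to 989 with shcircCsnk1g3 and 515 with shCTR, which is 25.2 and 12.2 CPM (counts scaled to library depth, here corrected by TMM factors so that most genes center on no difference), a 2.07-fold difference (1.86 to 2.31). The log2 fold change of the sum was 1.05 (0.89 to 1.21). Like all those below it was computed with a prior count of 2, which pulls the change of genes with few counts toward 0. The interval beside each belongs to the ratio without a prior count, which on the log2 scale was 1.80 for Oas3 and 1.49 for Oas2. Of the 7 genes, 3 were at least 2-fold higher (Oas2, Oas3 and Oasl2), and 2.13% of all 12941 genes compared were. With a prior count of 10 the count was 2 of 7, as Oas2 was then at 0.91, and 1.16% of all genes. The intervals of 6 of the 7 lay above 0, beside 26.9% of all genes, and none lay below 0, beside 28.2% of all genes. The median log2 fold change of the 7 genes was 0.83, with that of all genes at 0.00. Genes with few counts pass 2-fold more often: of the 2688 genes with summed counts between 31 and 579, the range of the family, 5.21% were at least 2-fold higher and 18.2% had an interval above 0.

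**Figure D1:**
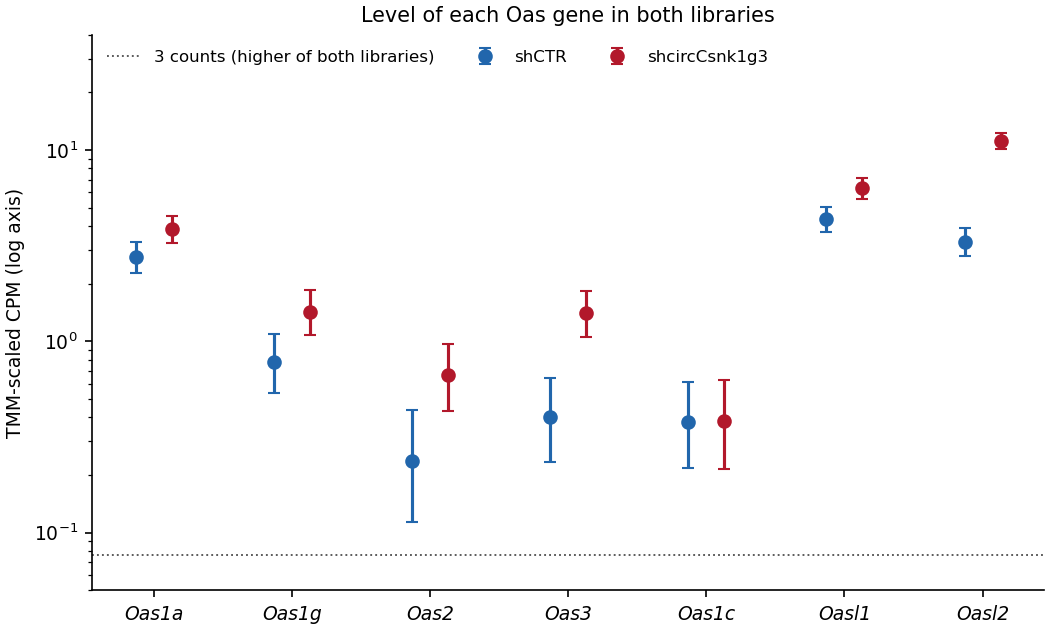
Level of each Oas gene in the shCTR library (blue) and the shcircCsnk1g3 library (red), in TMM-scaled CPM on a log axis; points are single libraries, bars are 95% counting intervals, and the dotted line is the level of 3 counts. CPM is not corrected for length, so points are to be compared within a gene: Oasl2 has 11.2 CPM with shcircCsnk1g3 and 3.31 CPM with shCTR, and Oas1c has 0.383 and 0.379 CPM.

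The synthetases come first. Oas1a and Oas1g are the mouse Oas1 copies with full synthetase activity, each with a single catalytic unit. Oas1a had 151 counts with shcircCsnk1g3 and 116 with shCTR, 3.85 and 2.75 CPM, a log2 fold change of 0.48 (0.13 to 0.85). Oas1g had 56 and 33 counts, 1.43 and 0.781 CPM, a log2 fold change of 0.83 (0.22 to 1.54). Both were higher in the shcircCsnk1g3 library by less than 2-fold, and their intervals overlapped.

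How the reads of this pair were divided is uncertain. The transcripts of Oas1a share 57.6% of their stretches of 50 bases with another Oas gene, and those of Oas1g share 45.7%, with 1057 stretches common to the pair. At 100 bases the shares were 40.9% and 31.3%. The deposited counts divide such reads by estimation, so the sum of both is the firmer value: 207 counts with shcircCsnk1g3 and 149 with shCTR, a log2 fold change of 0.58 (0.27 to 0.90). The remaining Oas1 copies in the table, Oas1d, Oas1e, Oas1f and Oas1h, had 0 counts in both libraries, where 3 counts would be 0.0765 and 0.0710 CPM. The sum over all 7 Oas1 copies with a row, Oas1c included, was 222 and 165 counts, 1.45-fold (1.18 to 1.78).

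Oas2 and Oas3 carry repeats of the Oas unit, and Oas3 binds long double-stranded RNA best. Oas3 had 55 counts with shcircCsnk1g3 and 17 with shCTR, 1.40 and 0.402 CPM, a log2 fold change of 1.68 (0.99 to 2.68). Oas2 had 26 and 10 counts, 0.663 and 0.237 CPM, a log2 fold change of 1.32 (0.39 to 2.70). Among the 12941 genes ordered by log2 fold change from the highest, Oas3 stood at rank 80 and Oas2 at rank 165. Their sequences share no stretch of 50 bases with another Oas gene, so the division of reads between Oas copies does not enter these counts, but with so few counts the size of either change was loosely bound. A gene with 20 counts in each library has an interval of 0.97 to each side on the log2 scale, and one with 200 has 0.29. Summed, Oas2 and Oas3 had 81 and 27 counts, a 3.23-fold difference (2.07 to 5.20) whose interval began above 2-fold.

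Oas1c, an Oas1 copy thought to lack synthetase activity, had few counts. It had 15 counts with shcircCsnk1g3 and 16 with shCTR, 0.383 and 0.379 CPM. Of its stretches of 50 bases, 9.82% occur in another Oas gene and 6.28% in a gene outside the family. Part of its few reads may therefore have been divided by estimation. The log2 fold change of Oas1c was 0.01, with an interval from -1.10 to 1.13. That interval holds the values of Oas1a and Oas1g but not those of Oas2 and Oas3, whose own intervals overlap it.

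Oasl1 and Oasl2 encode Oas-like proteins with a ubiquitin-like tail. Oasl1 lacks synthetase activity and is known to hold back the translation of Irf7. Oasl1 had 247 counts with shcircCsnk1g3 and 183 with shCTR, 6.30 and 4.33 CPM, a log2 fold change of 0.54 (0.26 to 0.82). Oasl2, its neighbor on the chromosome, had 439 and 140 counts, 11.2 and 3.31 CPM. That is 3.38-fold (2.79 to 4.12), which put Oasl2 at rank 76 of the 12941 genes while Oasl1 stood at rank 785. No stretch of 50 bases is common to these neighbors, and together they had 686 and 323 counts.

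**Figure D2:**
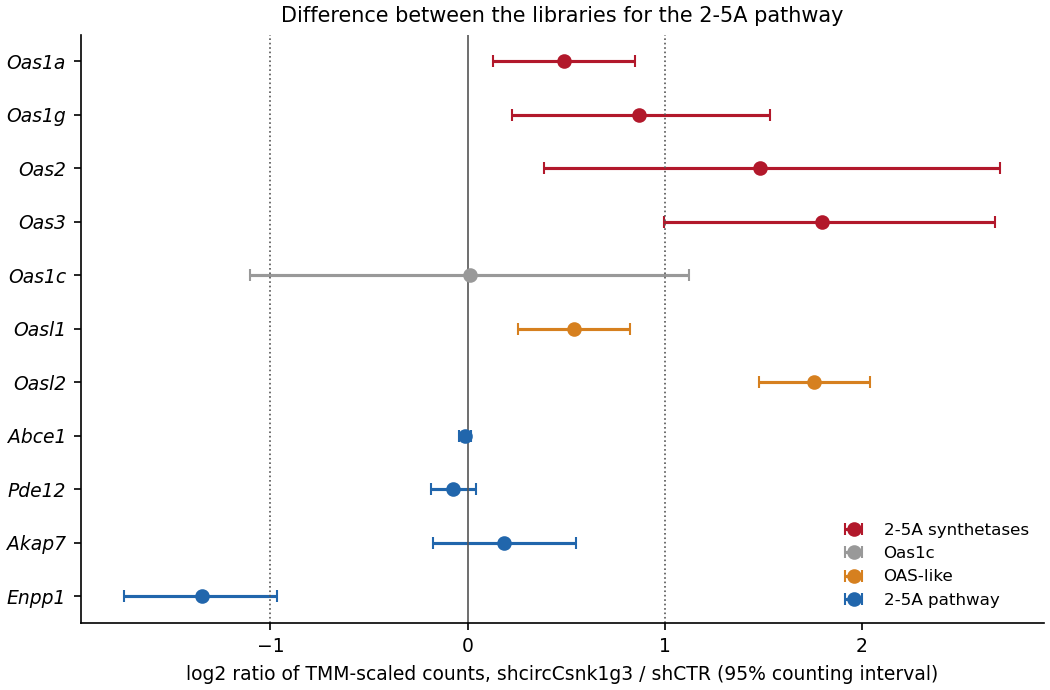
Log2 ratio of TMM-scaled counts, shcircCsnk1g3 over shCTR, for the 7 Oas genes and 4 genes of the 2-5A pathway; here no prior count is added, bars are 95% counting intervals and dotted lines mark 2-fold. The interval of Oasl2 lies wholly above 1, that of Oas1c spans 0, and that of Enpp1 lies below 0.

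The composition of the family was compared by shares of its counts, which need no scaling between libraries. Oasl2 held 44.4% (41.3 to 47.5) of the family's counts in the shcircCsnk1g3 library and 27.2% (23.4 to 31.2) in the shCTR library. Oasl1 held 24.97% (22.3 to 27.8) and 35.5% (31.4 to 39.8), and Oas1a held 15.3% (13.1 to 17.7) and 22.5% (19.0 to 26.4). For these 3 genes the intervals of both libraries did not overlap, but shares of 1 sum are not independent: Oasl1 and Oas1a had more counts with shcircCsnk1g3 and lower shares of a sum that includes Oasl2. The shares of Oas1g (5.66% and 6.41%), Oas3 (5.56% and 3.30%), Oas2 (2.63% and 1.94%) and Oas1c (1.52% and 3.11%) had intervals that overlapped. Within the other 6 genes alone, Oasl1 held 44.9% and 48.8% and Oas1a 27.5% and 30.9%, with intervals that overlapped, while Oas3 held 10% (7.62 to 12.8) and 4.53% (2.66 to 7.16), without overlap.

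Ratios of counts between members were also taken inside a library, and 5 were computed. They are not corrected for length, so each serves only to compare the libraries, where the lengths cancel. Oasl2 over Oasl1 was 1.78 (1.52 to 2.09) in the shcircCsnk1g3 library and 0.765 (0.609 to 0.959) in the shCTR library. Oas3 over Oas1a was 0.364 (0.262 to 0.499) and 0.147 (0.0826 to 0.245), again without overlap. Oas1g over Oas1a, at 0.371 (0.268 to 0.507) and 0.284 (0.187 to 0.422), and Oas3 over Oas2, at 2.12 (1.30 to 3.51) and 1.70 (0.735 to 4.15), overlapped, so an unequal change inside either pair was not detectable at this depth. Without Oasl2, the other 6 genes summed to 550 and 375 counts, a log2 fold change of 0.66 (0.47 to 0.85), so that the family was 1.58-fold higher without Oasl2 and 2.07-fold higher with it.

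**Figure D3:**
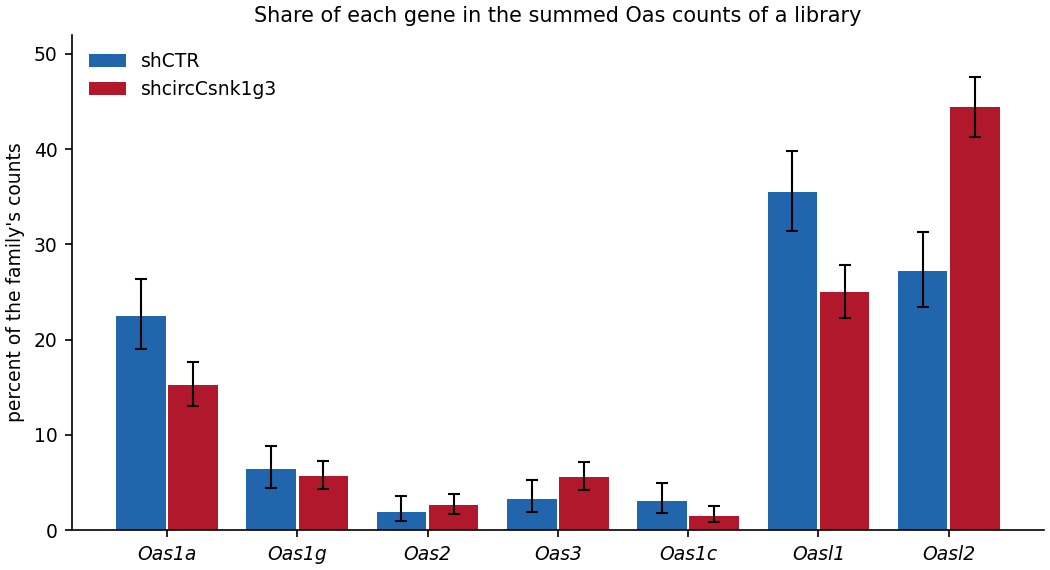
Share of each gene in the summed Oas counts of its own library, in percent of 515 counts for shCTR (blue) and 989 counts for shcircCsnk1g3 (red), with exact 95% intervals. The bar of Oasl2 is higher in the shcircCsnk1g3 library and those of Oasl1 and Oas1a are lower.

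To order the genes by level, CPM per kilobase of annotated exons was used. In the shCTR library the order was Oasl1 at 1.66, Oas1a at 1.46, Oasl2 at 0.520, Oas1g at 0.334, Oas1c at 0.157, Oas3 at 0.0569 and Oas2 at 0.0532 CPM per kilobase. The counting intervals of Oas1a and Oasl2 did not overlap, and those of every other neighboring pair in this order did. In the shcircCsnk1g3 library the order was Oasl1 at 2.42, Oas1a at 2.04, Oasl2 at 1.76, Oas1g at 0.610, Oas3 at 0.198, Oas1c at 0.159 and Oas2 at 0.149 CPM per kilobase, where the intervals of Oasl2 and Oas1g, and of Oas1g and Oas3, did not overlap. The place of Oasl2 rested on the length used: over its longest annotated transcript, 3123 bases in place of 6374 bases of exons, its level was 3.58 CPM per kilobase in the shcircCsnk1g3 library, above Oasl1 at 2.89, and 1.06 in the shCTR library, below Oasl1 at 1.99 and Oas1a at 1.46. All levels were modest among the genes of these cells, since the highest of them, Oasl1, ranked 8923 with shcircCsnk1g3 and 9568 with shCTR by CPM per kilobase of exons.

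**Figure D4:**
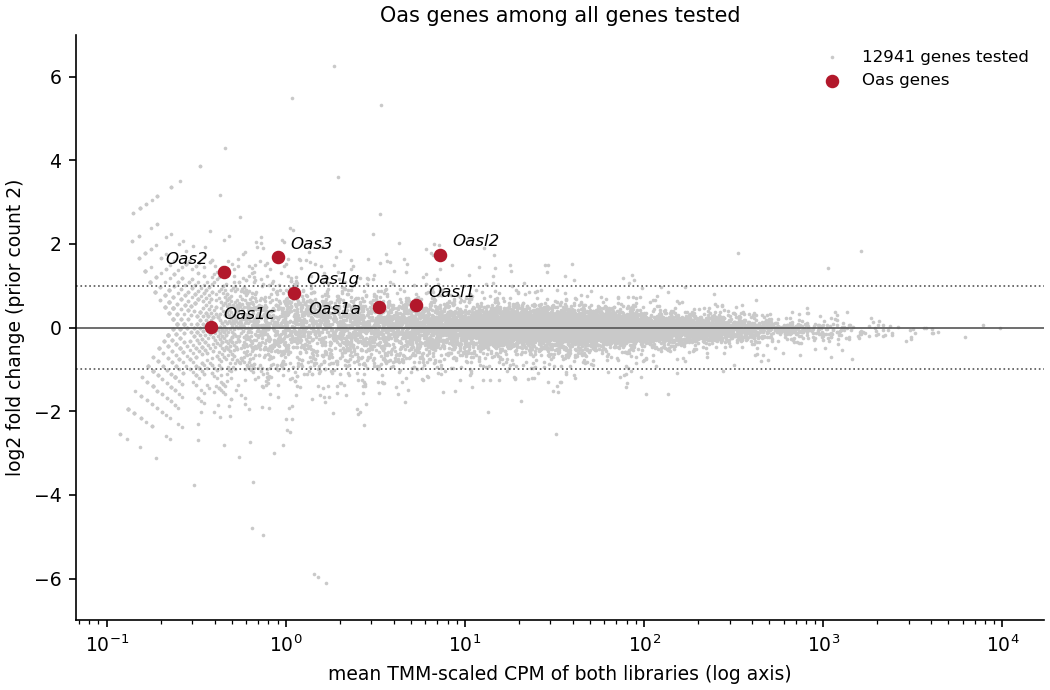
Log2 fold change, shcircCsnk1g3 over shCTR (prior count 2), against mean TMM-scaled CPM of both libraries on a log axis, for the 12941 genes compared (grey) and the 7 Oas genes (red); dotted lines mark 2-fold. Oas2, Oas3 and Oasl2 lie above the upper line, and the spread of all genes is widest at the low levels where Oas1c and Oas2 lie.

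Other genes tied to 2-5A were described by the same measures. Abce1, known for recycling ribosomes, had 14990 and 16287 counts, a log2 fold change of -0.01 (-0.04 to 0.02). Pde12, a phosphodiesterase that degrades 2-5A, had 1164 and 1318 counts and a log2 fold change of -0.07 (-0.19 to 0.04). Akap7, an anchoring protein with a domain related to 2-5A phosphodiesterases, had 133 and 126 counts and a log2 fold change of 0.18 (-0.18 to 0.55). Enpp1, a membrane enzyme known for cleaving ATP and cGAMP, had 78 and 214 counts, a log2 fold change of -1.33 (-1.74 to -0.97). Of these 4 genes, 1 was higher and 3 were lower, 1 of them at least 2-fold (Enpp1, beside 2.55% of all genes), with a median log2 fold change of -0.04.

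The factors that act before the Oas genes were described from a list of 13 interferon receptor and ISGF3 genes, of which 12 could be compared. Of the 12, 8 were higher and 4 lower, 3 were at least 2-fold higher, the intervals of 6 lay above 0 and those of 4 below, and the median log2 fold change was 0.15. Over all genes the shares were 2.13% at least 2-fold higher, 26.9% above 0 and 28.2% below, so the 4 of 12 below 0 were near the background. Most genes on this list had more counts than any Oas gene, and at such depth an interval leaves 0 at smaller changes. The 4 with the largest changes were all higher. Usp18, which restrains signaling at the interferon receptor, had 376 and 108 counts, a log2 fold change of 1.89 (1.59 to 2.23). Irf7, the factor whose translation Oasl1 holds back, had a log2 fold change of 1.29, and the ISGF3 subunits Irf9 (2196 and 1073 counts) and Stat2 (1290 and 756 counts) had 1.14 (1.03 to 1.25) and 0.88 (0.75 to 1.01).

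Other genes of nucleic acid sensing were set beside the family, on a list of 12 that held sensors of double-stranded RNA, enzymes that edit it, the adaptor Mavs, the ubiquitin ligase Trim25 and the DNA sensor Cgas, whose fold resembles that of Oas enzymes. Of the 12, 10 were higher and 2 lower, 1 was at least 2-fold higher, and the intervals of 10 lay above 0 and that of 1 below, beside 2.13%, 26.9% and 28.2% of all genes. Their median log2 fold change was 0.38, with a range from -0.14 to 1.55. Here too most genes had more counts than any Oas gene, so an interval could leave 0 at a small change, as for Mavs (0.15). Zbp1, a sensor of RNA in the Z form, was the highest with 197 and 71 counts, 1.55 (1.18 to 1.99). Adar, which edits double-stranded RNA, had 6758 and 5280 counts and a log2 fold change of 0.46 (0.41 to 0.52), and the RNA helicase gene Ddx58 (0.82) and the kinase gene Eif2ak2 (0.43) were the other 2 of the 4 largest changes.

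The Ifit genes, a family of RNA-binding interferon-stimulated genes, were the nearest in kind. Of the 4 Ifit genes compared, 3 were at least 2-fold higher, beside 2.13% of all genes: Ifit3b with 62 and 14 counts (log2 fold change 2.10), Ifit3 with 1.56 and Ifit1 with 411 and 167 counts (1.40). Ifit2 had 613 and 705 counts (-0.09). The median log2 fold change of the 4 was 1.48, above the 0.83 of the Oas family. Summed, the Ifit genes were 1.46-fold higher (1.34 to 1.59), below the 2.07-fold (1.86 to 2.31) of the Oas family, but this order rested on Ifit2, which held most of the Ifit counts in the shCTR library. Without it, the Ifit counts were 699 and 262, 2.87-fold higher (2.49 to 3.33).

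**Figure D5:**
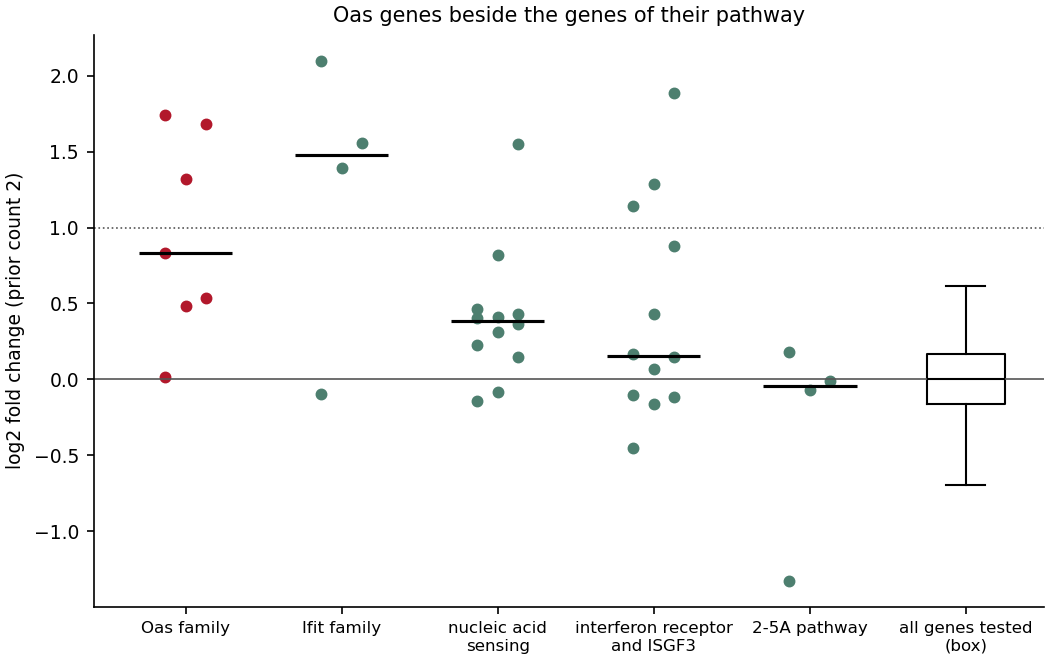
Log2 fold change, shcircCsnk1g3 over shCTR (prior count 2), of each gene compared in the Oas family (red) and in the lists set beside it (green); thick lines are list medians, the dotted line marks 2-fold, and the box gives the middle of all 12941 genes with whiskers at the 5th and 95th percentile. The Oas genes range from 0.01 to 1.74, and the 2-5A pathway lies at or below 0.18.

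The genes around the Oas loci were compared next. Within 100 kb of a family member, 25 other genes are annotated, of which 12 had a row in the count table and 5 could be compared. Of these 5, 3 were higher and 2 lower, none by 2-fold, with log2 fold changes from -0.19 to 0.47 and a median of 0.14. The interval of 1 lay above 0 and those of 2 lay below, near the 26.9% and 28.2% of all genes, and the highest value was of the size seen for Oas1a and Oasl1. Annotated genes overlap Oasl1, Oas1c (both antisense) and Oas2 and had no row in the table, and since the sources used here do not state whether strand was used in counting, reads from these partners could enter the counts of the Oas genes.

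The genes whose difference was nearest to that of the summed family were sought among the 9084 genes whose mean level reached 10 CPM. They were Dtx3l (762 and 393 counts, 1.06), Gm28901 (689 and 362 counts, 1.03) and Cldn1 (1133 and 580 counts, 1.07), beside 1.05 for the family. This likeness rests on 1 difference between 2 libraries.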

How the data were processed

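According to the study's methods and the labels, stranded poly(A) libraries were sequenced, and the authors aligned reads to GRCm38 with STAR and summarised them per gene with RSEM. The first table the authors deposited holds these estimated counts, given as whole numbers and not normalized, and its 92 spike-in rows, all 0, were left out. The second deposited table holds a signal, the count scaled by TMM, for 11624 genes, of which 5 are family members. As an alternative, only its library scaling and its choice of genes were taken and applied to the same counts. The annotation release and strand setting of the counting were not given in the sources used here.

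The members and gene lists were chosen with earlier results of these data known. TMM factors (1.01 for shcircCsnk1g3, 0.989 for shCTR) came from edgeR 4.0.16 (R 4.3.3). They were computed over the 12941 genes that reached 10 counts in at least one library. Log2 fold changes used a prior count of 2, and ratios and shares had exact Clopper-Pearson 95% intervals (scipy 1.17.1), which leave out variation between cultures and duplicate molecules from PCR. Called means past 2-fold. No p-value was computed. Of the list genes, the 4 with the largest absolute log2 fold change and at least 50 summed counts were named per list, and the marker genes named were chosen after their values were seen. Results for some genes of these lists are not reported here. The steps were tested on simulated counts of these library depths that varied by counting error only. Changes were given there only to genes with at least 200 summed counts. Their recovery was not tested at the lower counts of Oas1c, Oas1g, Oas2 and Oas3. Alternatives were DESeq2 1.42.0 size factors, total counts, prior counts of 0.5 and 10, other count filters, thresholds of 1.5-fold and 4-fold, the deposited scaled table, paralogs summed, and a correction for GC content and length by deciles. The longest transcript as length, shares without Oasl2, and sums without Ifit2 or Cd68 were added after seeing the data.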

Additional observations from a re-analysis of the deposited data

How the results depend on the processing

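No paired analysis was possible because each condition had 1 library, and so no replicate could be left out. Of 169 values under the alternatives, 149 stayed within their intervals or within 1.5 times the first count. Several alternatives only rescaled the same counts by little beside the interval widths, so for them staying within was close to fixed in advance. Of the 169, 1 changed sign: the leukocyte marker sum, at 0.094 without Cd68. The summed family ranged from 1.03 to 1.08 on the log2 scale, the family median from 0.54 to 0.87, and Oas3 from 1.35 to 1.77. With at least 200 summed counts, which leaves 3 Oas genes by construction, 1 of 3 was at least 2-fold higher (0.563% of all genes) and the intervals of 3 lay above 0, and at a threshold of 4-fold the count of Oas genes was 0 of 7 (0.379% of all genes). With a prior count of 10, 2 of 7 were at least 2-fold higher (1.16% of all genes), as Oas2 was then at 0.91. Summing Oasl1 and Oasl2 gives both 1.19 by construction. The other values that moved were chosen after seeing the data: levels of Oasl1, Oasl2 and Oas3 per kilobase of the longest transcript, shares without Oasl2, which grow by construction, and the summed Ifit genes, at 1.52 without Ifit2. Total counts shifted the median of all genes by 0.03. The GC and length correction was not run on summed counts. Depth limits Oas1c and Oas2 most, whose intervals (-1.10 to 1.13 and 0.39 to 2.70) are the widest of the family.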
